A study of Mus musculus with 22 samples.

Results

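The accessible windows described here are the 150-base windows around ATAC-seq summits that lie wholly between 33.5 and 37.5 Mb of mouse chromosome 17 (mm10), the interval that holds the major histocompatibility complex (MHC). They number 680 of the 177956 windows of the genome, were chosen by position alone and fall into 261 peaks. ATAC-seq reads the sites where a transposase can cut, so a high count marks open chromatin. The libraries came from 3 subsets of conventional dendritic cells (cDCs) sorted from spleens that were pooled before the sort. cDC1s were taken as XCR1+ cells, T-bet+ cDC2s as RFP+ cells and T-bet- cDC2s as RFP- cells. The mice, males and females of 6 to 10 weeks of age, carried the Tbx21RFP-cre reporter allele, in which RFP marks expression of T-bet, and the cDC1s came from the same reporter mice, so that no group lacks the allele. Each ATAC library was made from 50000 sorted cells, and each subset gave 2 libraries. The gate, as stated for RNA-seq, took CD11c+ MHCII+ cells without CD64, Ly6C and lineage markers. RNA-seq of the same spleen subsets gave 3 libraries per subset with the cells of 2 mice pooled in each. Cells were thus selected for surface MHC class II, which bears on every class II value given here. In bulk libraries, fewer cells with an open site and less opening per cell cannot be told apart.

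The MHC is one of the most gene-dense parts of the mammalian genome. Class II genes encode the alpha and beta chains (H2-Aa, H2-Ab1, H2-Eb1) that present peptides from the endosome to CD4 T cells, together with H2-DM, which loads the peptides, and H2-O, which restrains H2-DM. Their promoters carry an X box, bound by the RFX complex, and a Y box, a CCAAT element bound by NF-Y, and the coactivator CIITA acts through both. Class I genes (H2-K1, H2-D1) present cytosolic peptides that Psmb8 and Psmb9 help to cut and that the Tap1-Tap2 transporter carries into the endoplasmic reticulum, while the Q, T and M genes encode non-classical class I molecules. The class III segment between them holds complement genes, the TNF family and stress genes. Dendritic cells present antigen on both classes, and cDC1s are known for cross-presentation on class I.

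Windows that the results on class II turn on are shown first, each from the plus strand of the mm10 reference (RefSeq GRCm38). Capitals mark matches, on either strand, to any of 11 short letter patterns that were searched. These are an X box (CCTAGNNAC), a CCAAT box (CCAAT), ETS-IRF (GGAANNGAA), an interferon response pattern (GAAANNGAA), PU.1 (GAGGAAGT), a T-box (AGGTGTGA), Runx (TGTGGTT), C/EBP (TTGCNNAA), AP-1 (TGANTCA), NF-kB (GGGANTTTC) and CTCF (AGGGGGC). The ETS-IRF and interferon patterns can overlap, and AP-1 reads as a match on both strands. Letters that differ from a pattern at a single base are not marked, such as actagcaac in the H2-Eb1 window, set against the X box pattern. The first is the window just before H2-Ob (chr17:34238743-34238892), with an X box and a reversed CCAAT box, the second the promoter window of H2-Eb1 (chr17:34305700-34305849), with a CCAAT box in each direction, the third an intron window of H2-Ab1 (chr17:34261624-34261773), with a CCAAT box and a reversed X box, the fourth the promoter window of H2-DMb2 (chr17:34143136-34143285), with an ETS-IRF match, and the last an intron window of H2-Eb2 (chr17:34335248-34335397), with a C/EBP match.
H2-Ob: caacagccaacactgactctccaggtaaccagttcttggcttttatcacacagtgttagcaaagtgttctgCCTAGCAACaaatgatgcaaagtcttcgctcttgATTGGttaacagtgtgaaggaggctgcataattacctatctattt
H2-Eb1: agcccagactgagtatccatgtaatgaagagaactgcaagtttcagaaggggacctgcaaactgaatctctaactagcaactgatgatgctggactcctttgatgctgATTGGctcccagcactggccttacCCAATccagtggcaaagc
H2-Ab1: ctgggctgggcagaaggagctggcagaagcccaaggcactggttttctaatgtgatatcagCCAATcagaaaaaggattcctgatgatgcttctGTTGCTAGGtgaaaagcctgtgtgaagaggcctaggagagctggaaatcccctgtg
H2-DMb2: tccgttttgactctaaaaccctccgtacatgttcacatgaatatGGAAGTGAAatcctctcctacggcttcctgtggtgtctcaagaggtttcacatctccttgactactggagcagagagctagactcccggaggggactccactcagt
H2-Eb2: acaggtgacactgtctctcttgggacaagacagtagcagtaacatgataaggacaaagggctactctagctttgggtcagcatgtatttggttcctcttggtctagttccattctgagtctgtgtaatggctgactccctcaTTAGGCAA

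Outside class II the results turn on 3 intergenic windows of the Q genes, on a window far from any gene start near Ddr1 (chr17:35762745-35762894) and on the window between Ddr1 and Ier3 that was most open in T-bet- cDC2s (chr17:35777080-35777229). The Q windows lie beyond H2-Q4 (chr17:35392564-35392713), before H2-Q6 (chr17:35423253-35423402) and before H2-Q7 (chr17:35437652-35437801). All 3 hold the reversed T-box letters TCACACCT followed by the AP-1 letters TGACTCA, and they are copies of one element. Aligned with each other, the H2-Q4 and H2-Q6 windows were identical at 85 of 85 bases, the H2-Q4 and H2-Q7 windows at 135 of 138 and the H2-Q6 and H2-Q7 windows at 95 of 99. Only reads that aligned uniquely were kept, so reads from such copies could be lost, and the levels of these windows are uncertain. The Ddr1 window holds X box letters, and the Ier3 window holds none of the patterns.
Beyond H2-Q4: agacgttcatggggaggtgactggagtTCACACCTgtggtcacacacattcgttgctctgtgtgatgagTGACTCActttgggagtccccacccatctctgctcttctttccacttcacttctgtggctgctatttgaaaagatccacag
Before H2-Q6: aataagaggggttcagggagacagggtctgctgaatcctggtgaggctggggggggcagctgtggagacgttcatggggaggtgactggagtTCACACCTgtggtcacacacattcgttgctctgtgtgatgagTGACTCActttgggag
Before H2-Q7: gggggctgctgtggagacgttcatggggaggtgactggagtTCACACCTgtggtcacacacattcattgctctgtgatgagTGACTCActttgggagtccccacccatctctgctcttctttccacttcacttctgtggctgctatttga
Near Ddr1: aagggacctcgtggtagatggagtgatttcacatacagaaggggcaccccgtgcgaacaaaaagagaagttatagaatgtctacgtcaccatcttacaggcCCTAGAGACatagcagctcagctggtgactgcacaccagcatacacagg
Near Ier3: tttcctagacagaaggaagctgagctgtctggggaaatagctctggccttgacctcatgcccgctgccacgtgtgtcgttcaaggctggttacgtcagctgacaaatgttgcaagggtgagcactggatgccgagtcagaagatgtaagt

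Reads in all windows numbered 7270164 to 10081555 per ATAC library, and 32429 to 49256 of them, 0.388% to 0.489%, fell on the MHC interval. Values below are normalized reads, the count divided by the effective library size and multiplied by its mean over the 6 libraries. Before any comparison, the 2 libraries of each cDC2 subset differed in their reads of the interval. Summed over the interval, T-bet+ replicate 1 held 1.30 times the normalized reads of replicate 2, against 1.05 times over all windows of the genome. The ratio was also taken over windows averaging at least 50 normalized reads, without the strongest ones. On these windows it was 1.32 in the interval and 1.08 over the genome. Among 920 bins of 1 Mb across the genome, built from such windows, it had a median of 1.08, with 5% of bins above 1.36. For T-bet- cDC2s the ratio on such windows was 0.926 in the interval, with 5% of bins below 0.901. Over all windows of the interval, T-bet- replicate 1 held 0.896 times the reads of replicate 2, and for cDC1s the ratio was 1.00. By segment the T-bet+ ratio reached 1.41 in the K and class II segment, 1.40 between the Q and T genes and 1.37 in the D and Q segment, and was 1.10 in the M and olfactory segment. T-bet+ replicate 1 was therefore the library with the most normalized reads in the interval. Libraries also differed in how their reads varied with the GC content of windows over the genome. Spearman's rho was 0.156 and 0.049 in the T-bet+ libraries, 0.027 and 0.016 in the T-bet- libraries and -0.063 and -0.149 in the cDC1 libraries. What set T-bet+ replicate 1 apart in the interval was not tested.

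**Figure D1:**
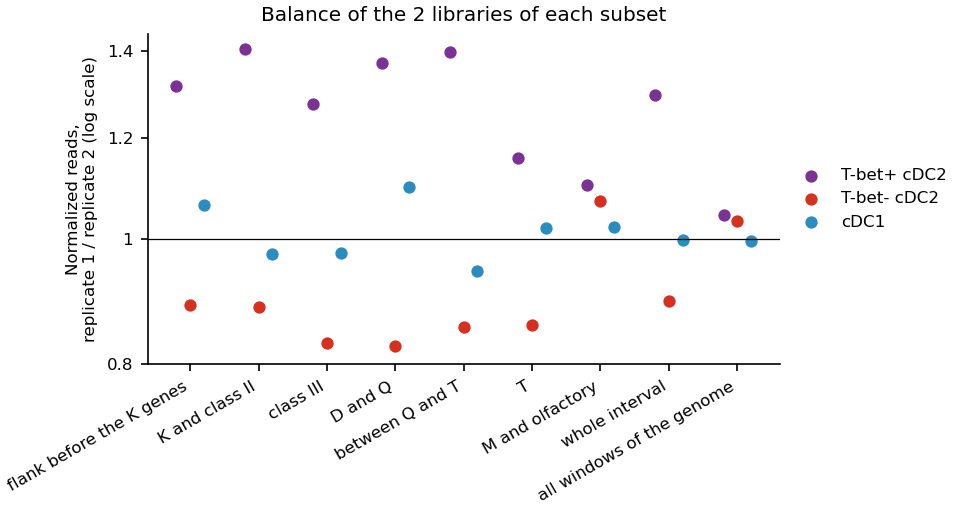
Ratio of normalized ATAC reads of replicate 1 to replicate 2 (vertical axis, log scale) in each segment of the MHC interval, in the whole interval and over all windows of the genome, with 1 point per subset. The T-bet+ ratio is 1.30 over the interval and 1.05 over the genome, while the cDC1 ratio is 1.00 over the interval.

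The interval was rich in open windows. It held 17 windows per 100 kb against 6.53 in the genome, and 241 of the 680 windows (35.4%) were centred within 1000 bases of the start of a protein-coding gene, against 14.7% of all windows. GC content averaged 54.4% against 50.0%, and the median window held 29 normalized reads against 21.4. Of the windows, 296 lay within 1000 bases of the start of a protein-coding transcript, 246 were intergenic, 111 were in introns, 17 in coding exons and 10 in UTRs. Bounded by annotated genes, the K and class II segment was the densest, with 119 windows and 32.2 per 100 kb, while the M and olfactory segment had 125 windows and 9.54 per 100 kb. The longest stretch between neighbouring window starts, 299523 bases from 36486805 to 36786328, contains 4 protein-coding genes, the non-classical class I genes H2-M11, H2-M9, H2-M1 and H2-M10.5. Windows of one peak are not independent of each other. In 89 pairs of neighbours the starts were under 150 bases apart, so these windows share reads.

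After windows with too few reads were set aside, 652 of the 680 were tested among 166547 windows of the genome. The other 28 averaged at most 9.23 normalized reads. Each call below rests on edgeR's quasi-likelihood test with Benjamini-Hochberg adjustment over all windows tested, where the adjusted p was below 0.01 and the log2 fold change exceeded 0.5 in size.

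Between the cDC2 subsets, 22 windows of the interval were higher in T-bet+ cDC2s, which is 3.37% of those tested against 3.92% of all windows. A further 7 were lower, 1.07% against 2.35% of all windows. The median log2 fold change was 0.08 in the interval and -0.01 over all windows. All 29 called windows had libraries that did not overlap between the subsets, as did 43.5% of the windows of the interval and 50.0% of all windows. Separation is likely in any called window, so it adds no separate evidence. The higher windows lay in 18 peaks and the lower ones in 7. Neither share exceeded its background. The counts also moved with single libraries. Without T-bet+ replicate 1 there were 3 higher and 6 lower windows, and without T-bet+ replicate 2 there were 46 and 2. Without T-bet- replicate 1 there were 8 and 5, and without T-bet- replicate 2 there were 13 and 3. When each library was scaled on the windows of the interval itself, 13 were higher and 7 lower. This scaling was chosen after the data were seen.

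Against cDC1s, T-bet+ cDC2s had 54 higher windows (8.28% of those tested, against 11.0% of all windows) and 43 lower ones (6.60% against 12.0%). T-bet- cDC2s had 19 higher (2.91% against 7.31%) and 37 lower (5.67% against 10.6%). All 4 shares were below their background. With library size alone in place of TMM normalization, the split was 37 higher and 62 lower for T-bet+ cDC2s and 16 and 48 for T-bet- cDC2s. That scaling moved the median of all windows to -0.18 and -0.08 on the log2 scale. Without cDC1 replicate 1 the T-bet+ counts were 27 higher and 25 lower and the T-bet- counts 8 and 24, and without cDC1 replicate 2 they were 29 and 30, and 15 and 28. Without T-bet+ replicate 1 the T-bet+ counts were 29 higher and 39 lower, and without T-bet+ replicate 2 they were 77 and 22, so the balance turned with the library left out. Without T-bet- replicate 1 the T-bet- counts were 18 and 28, and without T-bet- replicate 2 they were 11 and 29. These comparisons share the cDC1 libraries, and the T-bet+ and T-bet- libraries each enter 2 of the 3 comparisons. Over all 3 comparisons, 131 windows were called at least once and 521 in none.

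Along the interval the calls differed by segment. In the stretch between the Q and T genes T-bet+ cDC2s had 14 of 88 tested windows above cDC1s and 0 below, and in the D and Q segment 7 of 31 and 0, beside 11.0% above and 12.0% below over all windows. In these segments T-bet+ replicate 1 held 1.40 and 1.37 times the reads of replicate 2, and the part of that library in the counts was not tested by segment. In the flank before the K genes they had 2 above and 14 below of 86 tested, and in the M and olfactory segment 4 and 13 of 117. For T-bet- cDC2s the same 4 segments gave 8 above and 4 below, 0 and 0, 0 and 7, and 4 and 14, beside 7.31% above and 10.6% below over all windows. The K and class II segment, with 116 windows tested, held 6 of the 22 windows that were higher in T-bet+ cDC2s relative to T-bet- cDC2s and none of the 7 lower ones. Over all windows, 3.92% were called higher and 2.35% lower in this comparison. In this segment T-bet+ replicate 1 held 1.41 times the reads of replicate 2. These counts are descriptions, and no test of the differences between segments was made.

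**Figure D2:**
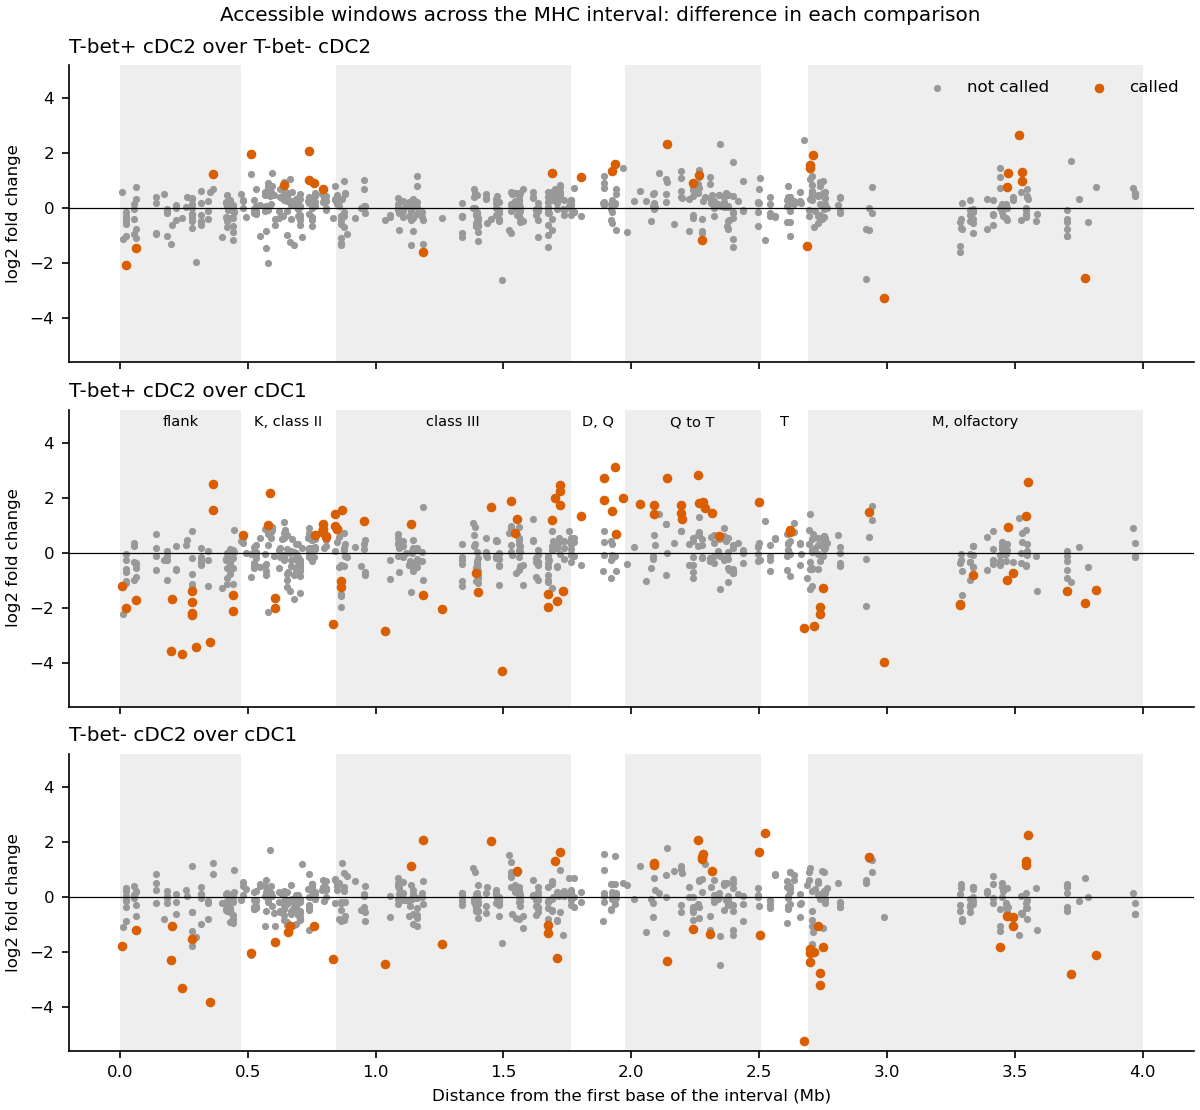
Log2 fold change (vertical axis) of each of the 652 tested windows against its distance from the first base of the MHC interval (horizontal axis, Mb), with 1 panel per comparison and called windows in orange. Grey and white bands are the 7 segments, and in the middle panel the calls between the Q and T genes are all above 0.

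Of the 9 class II genes, 6 had a promoter window, that is, a window within 1000 bases of the annotated gene start. Of these windows, 2 (H2-DMb2, H2-Ab1) were called higher in T-bet+ cDC2s relative to T-bet- cDC2s and none lower, beside 3.92% and 2.35% of all windows. The H2-Ab1 window lies in an intron, with no start of a protein-coding transcript within 1000 bases. At H2-DMb2, which encodes one of the beta chains of H2-DM, the window centred at -97 bases from the start held 405 and 231 normalized reads in T-bet+ cDC2s, 169 and 185 in the T-bet- subset and 233 and 205 in cDC1s. Both T-bet+ libraries were above both T-bet- libraries, with a log2 fold change of 0.84 ± 0.19 (SE) and an adjusted p of 0.0012. Against cDC1s the T-bet+ libraries were not called higher (log2 fold change 0.54, adjusted p = 0.0239). At H2-Ab1, the beta chain of I-A, the intron window at 942 bases held 139 and 112 reads in T-bet+ cDC2s, 71.6 and 60.6 in the T-bet- subset and 126 and 153 in cDC1s. It was low in T-bet- cDC2s alone, at 0.93 ± 0.24 for T-bet+ over T-bet- cDC2s (adjusted p = 0.0045) and -1.08 ± 0.24 for T-bet- cDC2s over cDC1s (adjusted p = 0.000289), and the libraries of T-bet+ cDC2s and cDC1s overlapped. The first of these calls held in 6 and the second in 12 of 14 alternative settings.

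H2-Ob, the beta chain of H2-O, held the window with the largest fold change between the cDC2 subsets among those tested in the K and class II segment. The window shown above, at -86 bases from its start, held 167 and 123 reads in T-bet+ cDC2s, 79.2 and 64.2 in the T-bet- subset and 100.4 and 74.7 in cDC1s. The neighbouring window at -270 bases held 52.7 and 40.5, 10.8 and 10.7, and 25.1 and 25.3 reads. In both windows the T-bet+ libraries were the highest and the T-bet- libraries were below them without overlap. Relative to T-bet- cDC2s the log2 difference was 1.02 ± 0.24 (adjusted p = 0.00175) at -86 and 2.10 ± 0.40 (adjusted p = 0.000104) at -270. Both windows were singled out after their values were seen. The strongest window within 1000 bases of the start, at 946 bases, held 141 and 116, 93.3 and 99.8, and 104 and 141 reads and was not called in any comparison. H2-Ob RNA moved the same way between the cDC2 subsets. The T-bet+ libraries held 13700, 12752 and 12342 normalized RNA counts, the T-bet- libraries 7397, 7146 and 7559 and the cDC1 libraries 9370, 8709 and 11016. The T-bet+ libraries were above all others, and the log2 fold change over T-bet- cDC2s was 0.81 ± 0.16 (adjusted p = 0.0181), a call that held in 6 of 13 alternative settings.

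Other class II windows were stronger in T-bet+ cDC2s than in cDC1s. The H2-Eb1 promoter window shown above held 483 and 335 reads in T-bet+ cDC2s, 365 and 316 in the T-bet- subset and 282 and 270 in cDC1s, with a log2 fold change of 0.56 ± 0.17 over cDC1s (adjusted p = 0.00731). The H2-Ab1 window at 4009 bases, with the X box letters, held 519 and 307, 321 and 292, and 281 and 254 reads, with 0.62 ± 0.18 over cDC1s (adjusted p = 0.00428). T-bet+ replicate 1 was the highest library in both, and these calls held in 5 and 6 of 14 alternative settings. An intergenic window at -8304 bases from H2-Aa, also chosen after its values were seen, held 436 and 273 reads in T-bet+ cDC2s, 185 and 250 in the T-bet- subset and 167 and 177 in cDC1s. It was called in T-bet+ cDC2s over both T-bet- cDC2s (0.70 ± 0.19, adjusted p = 0.00686) and cDC1s (1.04 ± 0.19, adjusted p = 9.64e-06).

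The H2-Eb2 intron window went the other way. It held 11.5 and 9.21 reads in T-bet+ cDC2s, 9.76 and 16.0 in the T-bet- subset and 57.5 and 67.8 in cDC1s. The cDC2 libraries overlapped with each other and lay far below both cDC1 libraries, at -2.58 ± 0.40 for T-bet+ cDC2s (adjusted p = 2.19e-07) and -2.24 ± 0.39 for T-bet- cDC2s (adjusted p = 3.8e-06), and both calls held in 13 of 13 alternative settings. RNA of H2-Eb2, a class II beta chain gene of its own, had the opposite order. T-bet+ cDC2s held 1493, 1355 and 1887 normalized counts, T-bet- cDC2s 1858, 1634 and 1003 and cDC1s 148, 151 and 384, with log2 fold changes of 2.79 ± 0.43 (adjusted p = 0.00168) and 2.72 ± 0.43 (adjusted p = 0.00212) over cDC1s. None of the windows used here lies within 1000 bases of the annotated gene starts of H2-Eb2, H2-Aa or H2-DMa. A window inside H2-DMa (chr17:34135425-34135574) does lie within 1000 bases of the start of a protein-coding transcript. It held 483 and 322 reads in T-bet+ cDC2s, 305 and 313 in the T-bet- subset and 276 and 293 in cDC1s. It was among the 10 strongest windows and was not called in any comparison.

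The spleen RNA libraries held 20993220 to 27317480 reads on genes. RNA of the 9 class II genes was tested among 14377 genes, at an adjusted p under 0.05. Between the cDC2 subsets H2-Ob rose and H2-DMb1 fell in T-bet+ cDC2s, and the other 7 were not called. Across the 129 tested genes of the interval 5 were higher and 5 lower, 3.88% each, against 1.95% and 3.44% of all genes. H2-DMb1, the other beta chain of H2-DM, held 10477, 9222 and 8837 counts in T-bet+ cDC2s, 22578, 24730 and 18174 in the T-bet- subset and 25464, 19600 and 21986 in cDC1s. The T-bet+ libraries lay below all 6 others, by -1.20 ± 0.18 against T-bet- cDC2s (adjusted p = 0.00564) and -1.23 ± 0.18 against cDC1s (adjusted p = 0.00135), in 13 of 13 alternative settings each. Its neighbour H2-DMb2 held 35257, 30625 and 30428 counts in T-bet+ cDC2s, 22494, 24414 and 19475 in the T-bet- subset and 4544, 3672 and 4570 in cDC1s. It rose in both cDC2 subsets over cDC1s, by 2.91 ± 0.18 (adjusted p = 6.81e-06) and 2.38 ± 0.17 (adjusted p = 2.15e-05), and its adjusted p between the cDC2 subsets was 0.107. The promoter window of H2-DMb1 was not called in any comparison, with 187 and 129 reads in T-bet+ cDC2s, 120 and 135 in the T-bet- subset and 136 and 156 in cDC1s.

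Against cDC1s 3 class II genes rose and 1 fell in T-bet+ cDC2s, and 5 rose in T-bet- cDC2s. Over the interval the counts were 10 higher and 15 lower for T-bet+ cDC2s, 7.75% and 11.6% against 9.98% and 8.20% of all genes, and 16 and 14 for T-bet- cDC2s, 12.4% and 10.9% against 9.65% and 6.20%. With the replicate block, T-bet+ cDC2s had 10 higher and 7 lower genes, and the same-numbered libraries of T-bet+ cDC2s and cDC1s correlated in all 3 pairs (0.46, 0.21 and 0.19). H2-Oa, the alpha chain of H2-O, held 27106, 19390 and 24886 counts in T-bet+ cDC2s, 16283, 24183 and 13576 in the T-bet- subset and 10054, 6532 and 9001 in cDC1s. Both cDC2 subsets lay above cDC1s, by 1.48 ± 0.26 (adjusted p = 0.00375) and 1.08 ± 0.26 (adjusted p = 0.0201). H2-Aa and H2-Eb1 rose in T-bet- cDC2s by 0.74 ± 0.19 (adjusted p = 0.0304) and 0.74 ± 0.21 (adjusted p = 0.0399), calls that held in 4 and 3 of 13 alternative settings. H2-Ab1 had adjusted p values of 0.706 or above, and T-bet- replicate 1 was its lowest library, at 432727 counts against 551169 to 819531 in the 8 others.

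**Figure D3:**
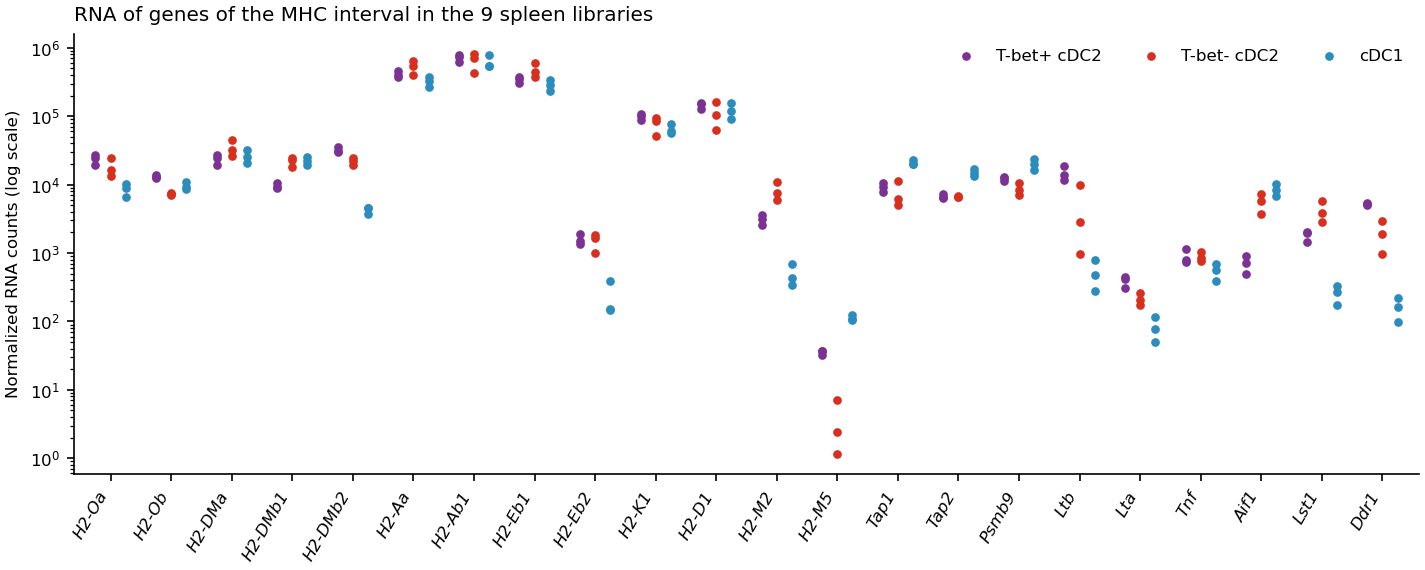
Normalized RNA counts (vertical axis, log scale) of 22 genes of the MHC interval in the 9 spleen libraries, with 1 point per library. H2-DMb2 and H2-Eb2 lie lowest in cDC1s, H2-DMb1 lowest in T-bet+ cDC2s, and Tap1, Tap2 and Psmb9 highest in cDC1s.

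Class I and its peptide supply showed another pattern. RNA of the classical genes H2-K1 and H2-D1 was not called in any comparison. Of the 5 peptide processing genes, Tap1, Tap2 and Psmb9 fell in both cDC2 subsets against cDC1s, and Tapbp and Psmb8 were not called. The Psmb9 call in T-bet+ cDC2s was lost with the replicate block (adjusted p = 0.0954). Tap1 held 9260, 7910 and 10472 counts in T-bet+ cDC2s, 5038, 6072 and 11380 in the T-bet- subset and 22897, 20011 and 20328 in cDC1s. Against cDC1s it was at -1.19 ± 0.29 in T-bet+ cDC2s (adjusted p = 0.018), and Tap2 was at -1.15 ± 0.16 (adjusted p = 0.001). The window between the starts of Tap1 and Psmb9, which are transcribed away from each other, held 350 and 256 reads in T-bet+ cDC2s, 255 and 253 in the T-bet- subset and 240 and 250 in cDC1s. Its log2 fold changes against cDC1s were 0.31 ± 0.18 and 0.06 ± 0.18, and no promoter window of the 5 genes was called in any comparison.

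The Q windows shown above were highest in T-bet+ cDC2s. The window before H2-Q7 held 107 and 53.4 reads in T-bet+ cDC2s, 29.3 and 23.2 in the T-bet- subset and 12.6 and 5.75 in cDC1s. The subsets did not overlap, and T-bet+ replicate 1 was the highest library. T-bet+ over T-bet- cDC2s gave a log2 fold change of 1.62 ± 0.34 (adjusted p = 0.000416) and T-bet+ cDC2s over cDC1s 3.09 ± 0.41 (adjusted p = 3.72e-09), the second holding in 13 of 13 alternative settings and the first in 10. The window before H2-Q6 held 60.3 and 52.5, 24.9 and 19.6, and 18.8 and 20.7 reads, with 1.34 ± 0.35 over T-bet- cDC2s (adjusted p = 0.00495) and 1.51 ± 0.36 over cDC1s (adjusted p = 0.000561). The third copy, beyond H2-Q4, was chosen after its values were seen. It held 53.6 and 33.1, 26.0 and 13.4, and 8.37 and 4.60 reads, was called over cDC1s (2.70 ± 0.48, adjusted p = 3.84e-06) and missed the threshold over T-bet- cDC2s (adjusted p = 0.0397). RNA of H2-Q4, H2-Q6 and H2-Q7 was not called in any comparison, with log2 fold changes of -0.21 to 0.22, although reads of these near-identical genes may be split or lost. H2-Q7 held 5391, 4907 and 6212 counts in T-bet+ cDC2s, 5233, 7035 and 5163 in the T-bet- subset and 5245, 4468 and 5245 in cDC1s, and the 3 subsets overlapped.

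Among the non-classical genes, H2-M2 RNA held 3185, 2592 and 3565 counts in T-bet+ cDC2s, 10815, 7641 and 5899 in the T-bet- subset and 431, 337 and 696 in cDC1s. The 3 subsets did not overlap. It was highest in T-bet- cDC2s, with -1.38 ± 0.32 for T-bet+ over T-bet- cDC2s (adjusted p = 0.0361, in 6 of 13 alternative settings) and 4.06 ± 0.35 for T-bet- cDC2s over cDC1s (adjusted p = 5.7e-05). H2-M5 was low in all libraries and lowest in T-bet- cDC2s, at 32.7, 36.3 and 36.4 counts in T-bet+ cDC2s, 1.14, 2.43 and 7.11 in the T-bet- subset and 108, 123 and 104 in cDC1s, and was called in all 3 comparisons, the one between T-bet+ cDC2s and cDC1s not with the replicate block (adjusted p = 0.0855). No window used here lies within 1000 bases of either gene's start. A window at 5909 bases from the start of H2-M3, singled out after its values were seen, held 9.58 and 7.37 reads in T-bet+ cDC2s, 54.2 and 44.6 in the T-bet- subset and 35.6 and 25.3 in cDC1s, and was called lower in T-bet+ cDC2s than in T-bet- cDC2s (-2.52 ± 0.42, adjusted p = 6.53e-06).

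**Figure D4:**
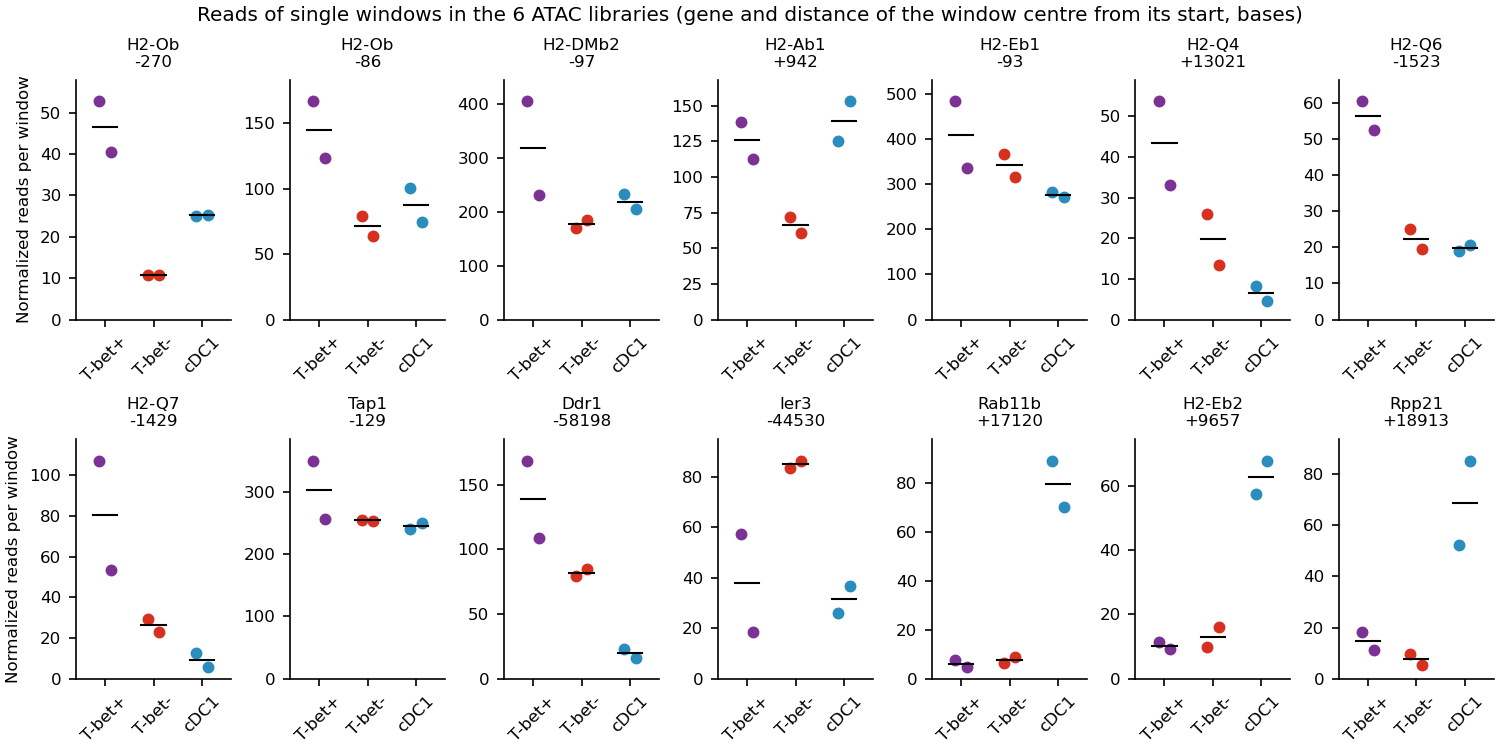
Normalized ATAC reads (vertical axes, from 0) of 14 windows in the 6 libraries, with points for libraries and bars for subset means. The T-bet+ libraries are above all others at H2-Ob and the 3 Q windows, and the cDC1 libraries are highest at the Rab11b, H2-Eb2 and Rpp21 windows.

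Of the 3 TNF family genes in the class III segment, Ltb and Lta RNA was called higher in both cDC2 subsets than in cDC1s, Tnf was not called, and none was called between the cDC2 subsets. Ltb, a subunit of membrane lymphotoxin, held 13827, 11813 and 18494 counts in T-bet+ cDC2s, 963, 2849 and 9802 in the T-bet- subset and 794, 470 and 276 in cDC1s. It rose in T-bet+ cDC2s over cDC1s by 4.84 ± 0.81 (adjusted p = 0.00274), and T-bet- replicate 3 lay far above the 2 other T-bet- libraries. Lta, the other lymphotoxin subunit, held 451, 307 and 417, 257, 173 and 209, and 78.1, 50.4 and 118 counts, and rose by 2.26 ± 0.36 (adjusted p = 0.00223). In T-bet- cDC2s the rise over cDC1s was 3.14 for Ltb (adjusted p = 0.019) and 1.37 for Lta (adjusted p = 0.0281). None of the windows used here lies within 1000 bases of the starts of these 3 genes. In an intron of Tnf, the window at 1370 bases held 175 and 117 reads in T-bet+ cDC2s, 64.0 and 115 in the T-bet- subset and 35.6 and 37.9 in cDC1s. Both cDC2 subsets were called above cDC1s there, at 1.99 ± 0.28 (adjusted p = 1.85e-08) and 1.30 ± 0.29 (adjusted p = 0.000296). The window at -3144 bases from Lta was highest in cDC1s instead, with 20.1 and 8.29, 9.76 and 10.7, and 38.7 and 57.5 reads, at -1.75 ± 0.41 for T-bet+ cDC2s over cDC1s (adjusted p = 0.000367). Both windows were chosen after their values were seen.

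Lst1 and Aif1, both genes of myeloid cells, differed between their windows and their RNA. At Lst1 the window at 232 bases held 79.5 and 49.7 reads in T-bet+ cDC2s, 26.0 and 26.7 in the T-bet- subset and 36.6 and 39.1 in cDC1s, and was higher in T-bet+ cDC2s relative to T-bet- cDC2s (1.28 ± 0.33, adjusted p = 0.00431, in 9 of 14 alternative settings). The strongest window within 1000 bases of the start, at -943 bases, held 74.7 and 61.7, 47.7 and 62.4, and 36.6 and 80.5 reads and was not called in any comparison. Lst1 RNA held 2010, 1446 and 1989 counts in T-bet+ cDC2s, 3793, 5680 and 2865 in the T-bet- subset and 326, 172 and 268 in cDC1s. It rose in T-bet+ cDC2s over cDC1s by 2.83 ± 0.34 (adjusted p = 0.000404) and was not called between the cDC2 subsets (-1.18 ± 0.32, adjusted p = 0.0674). Aif1 RNA, for an actin-binding protein of macrophages, held 712, 493 and 894 counts in T-bet+ cDC2s, 5718, 7226 and 3739 in the T-bet- subset and 10307, 6726 and 8470 in cDC1s. It fell in T-bet+ cDC2s against T-bet- cDC2s (-2.99 ± 0.33, adjusted p = 0.00096) and against cDC1s (-3.60 ± 0.34, adjusted p = 8.65e-05). Its intragenic window at 2618 bases, singled out after its values were seen, held 23 and 30.4 reads in T-bet+ cDC2s, 20.6 and 39.2 in the T-bet- subset and 69.0 and 82.8 in cDC1s, so the cDC2 subsets overlapped and both were called lower than cDC1s.

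Further genes with RNA calls between the cDC2 subsets were few. Ppt2, a lysosomal thioesterase, held 276, 140 and 249 counts in T-bet+ cDC2s, 2030, 1850 and 1062 in the T-bet- subset and 1875, 1626 and 2328 in cDC1s, and fell in T-bet+ cDC2s against T-bet- cDC2s (-2.89 ± 0.35, adjusted p = 0.00187). Gabbr1, a subunit of the GABA-B receptor, held 264, 221 and 302, 19.3, 63.2 and 51.6, and 157, 179 and 150 counts, and rose by 2.55 ± 0.42 (adjusted p = 0.00894). Ppp1r11, an inhibitor of protein phosphatase 1, rose by 1.08 ± 0.26 (adjusted p = 0.0415) and the complement gene Cfb fell (adjusted p = 0.0485), in 5 of 13 and 4 of 12 alternative settings. Cfb held 15.0, 7.97 and 7.86 counts in T-bet+ cDC2s, against 93.1, 48.6 and 84.5 in the T-bet- subset. The remaining call was the zinc finger gene Zfp57, with 25.2, 15.1 and 45.2 counts in T-bet+ cDC2s, against 2.27, 0 and 0 in the T-bet- subset. Libraries also differed in how their RNA counts varied with GC content, taken in the most GC-rich stretch of each gene's longest transcript. T-bet- replicates 1 and 2 and cDC1 replicate 3 had a negative correlation and the others a positive one. With this library class as a term in the fit, 5 genes of the interval were higher and 3 lower between the cDC2 subsets, 16 and 17 for T-bet+ cDC2s over cDC1s and 16 and 17 for T-bet- cDC2s over cDC1s. Its part in any single value was not tested.

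Between the Q and T genes, the window near Ddr1 shown above held 169 and 109 reads in T-bet+ cDC2s, 79.2 and 84.7 in the T-bet- subset and 23 and 16.1 in cDC1s. The 3 subsets did not overlap. It was called over cDC1s in both cDC2 subsets, at 2.81 ± 0.31 (adjusted p = 7.63e-12) and 2.05 ± 0.32 (adjusted p = 3.87e-07), in 14 of 14 alternative settings each. Ddr1, a collagen receptor whose start is the nearest of a protein-coding gene, held 5334, 4976 and 5225 RNA counts in T-bet+ cDC2s, 953, 1886 and 2893 in the T-bet- subset and 162, 221 and 97.2 in cDC1s. Its RNA rose over cDC1s by 5.01 ± 0.47 (adjusted p = 9e-05) and 3.58 ± 0.44 (adjusted p = 0.000513). The window is centred at -58198 bases from that start, and a link between them was not tested. The window near Ier3, centred at -44530 bases from its start, held 57.5 and 18.4 reads in T-bet+ cDC2s, 83.5 and 86.5 in the T-bet- subset and 26.1 and 36.8 in cDC1s. It was highest in T-bet- cDC2s, called over T-bet+ cDC2s (-1.17 ± 0.32 for T-bet+ over T-bet- cDC2s, adjusted p = 0.00767, in 9 of 14 alternative settings) and over cDC1s (1.44 ± 0.33, adjusted p = 0.000485). RNA of Ier3, an early response gene, was called only for T-bet+ cDC2s over cDC1s (1.77 ± 0.42, adjusted p = 0.0162).

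In the M and olfactory segment the difference between the cDC2 subsets with the lowest adjusted p of the interval was at a window 9604 bases from the start of 2410137M14Rik, the nearest protein-coding gene, and within 1000 bases of the start of the pseudogene H2-M6-ps. It held 289 and 295 reads in T-bet+ cDC2s, 111 and 128 in the T-bet- subset and 177 and 129 in cDC1s. Both T-bet+ libraries were alike and above the 4 others, with 1.28 ± 0.20 over T-bet- cDC2s (adjusted p = 1.36e-06) in 14 of 14 alternative settings. Against cDC1s it was also higher (0.93, adjusted p = 8.35e-05), while the RNA of H2-M6-ps was lower than in cDC1s in T-bet+ cDC2s (-3.63 ± 1.00, adjusted p = 0.0328), from 15.9, 4.43 and 0.983 against 77.2, 52.3 and 138 counts. A window at -5582 bases from Mog, a myelin gene, held 231 and 159, 100.9 and 56.2, and 129 and 109 reads, with 1.33 ± 0.23 (adjusted p = 2.19e-05) in 13 of 14. In the neighbouring T segment, the window in an intron of H2-T3, at 2527 bases from its start, was lower in T-bet+ cDC2s, with 23.9 and 20.3, 45.6 and 67.7, and 35.6 and 48.3 reads (-1.36 ± 0.34, adjusted p = 0.00361). At -8389 bases from H2-T3, a window held 45.0 and 28.5 reads in T-bet+ cDC2s, 9.76 and 16.0 in the T-bet- subset and 62.8 and 47.1 in cDC1s. It was low in T-bet- cDC2s, at -2.06 ± 0.39 against cDC1s (adjusted p = 2.07e-05, in 13 of 13 alternative settings). Most calls against cDC1s in this segment were lower. The window at 18913 bases from Rpp21 held 18.2 and 11.0 reads in T-bet+ cDC2s, 9.76 and 5.35 in the T-bet- subset and 52.3 and 85.1 in cDC1s, at -2.22 ± 0.38 (adjusted p = 2.41e-06) and -3.19 ± 0.43 (adjusted p = 1.11e-08).

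In the flank before the K genes, a window over a UTR of Rab11b, a GTPase of recycling endosomes, held 7.66 and 4.60 reads in T-bet+ cDC2s, 6.51 and 8.91 in the T-bet- subset and 88.9 and 70.1 in cDC1s. The cDC2 subsets overlapped and both lay below cDC1s, at -3.68 ± 0.43 (adjusted p = 5.7e-11) and -3.33 ± 0.41 (adjusted p = 8.1e-10), in 13 of 13 alternative settings each. Angptl4, which encodes an inhibitor of lipoprotein lipase, was low in both cDC2 subsets in RNA, with 54.2, 58.5 and 30.5 counts in T-bet+ cDC2s, 13.6, 20.7 and 37.3 in the T-bet- subset and 607, 437 and 126 in cDC1s. Its RNA fell by -3.03 ± 0.61 (adjusted p = 0.00756) and -4.01 ± 0.65 (adjusted p = 0.00248). Around its start, windows at 79, -66, -315 and -495 bases were called lower in T-bet+ cDC2s than in cDC1s, and the one at -315 bases was called lower in T-bet- cDC2s as well. That window held 27.8 and 12.9, 26.0 and 11.6, and 57.5 and 48.3 reads. These windows belong to one peak, were singled out after their values were seen, and the strongest window within 1000 bases of the start, at 537 bases, was not called.

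The other windows and genes with large changes were called mostly against cDC1s. Windows at -8313 bases from Gm7029, -999 from Gm16181, 5981 in Gabbr1, 19216 from H2-T24 and 31631 from H2-M10.4 were called higher than cDC1s in T-bet+ cDC2s, at 2.48, 2.22, 2.57, 1.85 and 1.47 on the log2 scale. All but the first were also called in T-bet- cDC2s, and the first was called in T-bet+ over T-bet- cDC2s (1.25 ± 0.31, adjusted p = 0.00357). At Gabbr1 the intron window held 55.5 and 57.1 reads in T-bet+ cDC2s, 43.4 and 46.4 in the T-bet- subset and 4.18 and 14.9 in cDC1s. Lower than cDC1s in both cDC2 subsets were windows at -17746 bases from C4b (-2.04 and -1.70), 324 from Olfr102 (-1.35 and -2.11) and -26326 from H2-T3 (adjusted p = 5.48e-07 and 5.92e-05). In RNA, Notch4, a receptor of endothelial cells, held 90.7, 68.2 and 48.2 counts in T-bet+ cDC2s, 1.14, 17 and 51.6 in the T-bet- subset and 834, 1015 and 178 in cDC1s. Its calls against cDC1s (adjusted p = 0.0352 and 0.00996) were lost with the replicate block (adjusted p = 0.0968 and 0.052). Prrt1 fell in T-bet+ cDC2s against cDC1s (-3.31 ± 0.88, adjusted p = 0.0271, and 0.0731 with the replicate block), as did Daxx, a histone chaperone (-0.66 ± 0.18, adjusted p = 0.0309, and 0.0946 with the block). Egfl8 fell in T-bet- cDC2s against cDC1s (-2.29 ± 0.46, adjusted p = 0.00856).

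The strongest windows of the interval differed little between subsets. The highest, at -41 bases from Trim26, held 736 and 605 reads in T-bet+ cDC2s, 832 and 636 in the T-bet- subset and 595 and 538 in cDC1s and was not called in any comparison, and the next, at -60 bases from Ppp1r11, was not called either. Of the 10 strongest, 1 per peak, none was called between the cDC2 subsets or between T-bet- cDC2s and cDC1s. In T-bet+ cDC2s over cDC1s 4 were called, those of H2-Eb1, H2-Ab1 and H2-Q7 and a window at -7058 bases from Btnl2. The last held 539 and 389, 354 and 318, and 255 and 261 reads (0.85 ± 0.17, adjusted p = 4.23e-05), and T-bet+ replicate 1 was the highest library in all 4. At -105 bases from H2-Q7 the window held 502 and 341, 296 and 293, and 255 and 276 reads (0.67 ± 0.17, adjusted p = 0.00156).

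Letter patterns in the called windows were counted as a description. AP-1 letters were in 14 of the 54 windows that were higher in T-bet+ cDC2s than in cDC1s (25.9%), in 6.91% of all windows of the interval, in 7.90% of all windows and in 12.9% of all windows called the same way. CCAAT letters were in 20 of the 54 (37.0%), against 19.0% of the interval, 17.4% of all windows and 18.8% of those called the same way. In the 43 windows that were lower in T-bet+ cDC2s than in cDC1s, the interferon response letters were in 6 (14.0%), against 5.88% of the interval and 11.7% of all windows called that way. The T-box letters were in 8 windows of the interval (1.18%, against 0.714% of all windows), among them 2 of the 22 windows that were higher in T-bet+ cDC2s relative to T-bet- cDC2s, both of them Q copies. Over the genome 2.48% of the windows called higher in T-bet+ cDC2s and 0.204% of those called lower held these letters. X box letters were in 12 windows (1.76%), near the share of all windows (1.86%), and in 3 of the 119 windows of the K and class II segment. CTCF letters were in 6.47% of the interval and 3.63% of all windows. A match is not a bound site, and a missing match to these strict patterns does not show that a site is absent.

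For 61 genes with both a promoter window and an RNA value, over 54 distinct windows, the 2 log2 fold changes were set side by side. Across genes, Spearman's rho came to 0.063 for T-bet+ over T-bet- cDC2s, 0.27 for T-bet+ cDC2s over cDC1s and 0.26 for T-bet- cDC2s over cDC1s. With all windows within 1000 bases summed, it was 0.019, 0.37 and 0.30. Genes are not independent replicates and some share a window, and the window taken for H2-Ab1 is the intron window at 942 bases. Of the genes called in RNA with a promoter window, 2 of 4, 7 of 11 and 9 of 15 had a window that differed in the same direction, and the window was itself called for 0, 1 and 0 of them. The single case was the pseudogene H2-M6-ps, named after its values were seen, whose window was higher and whose RNA was lower in T-bet+ cDC2s than in cDC1s.

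**Figure D5:**
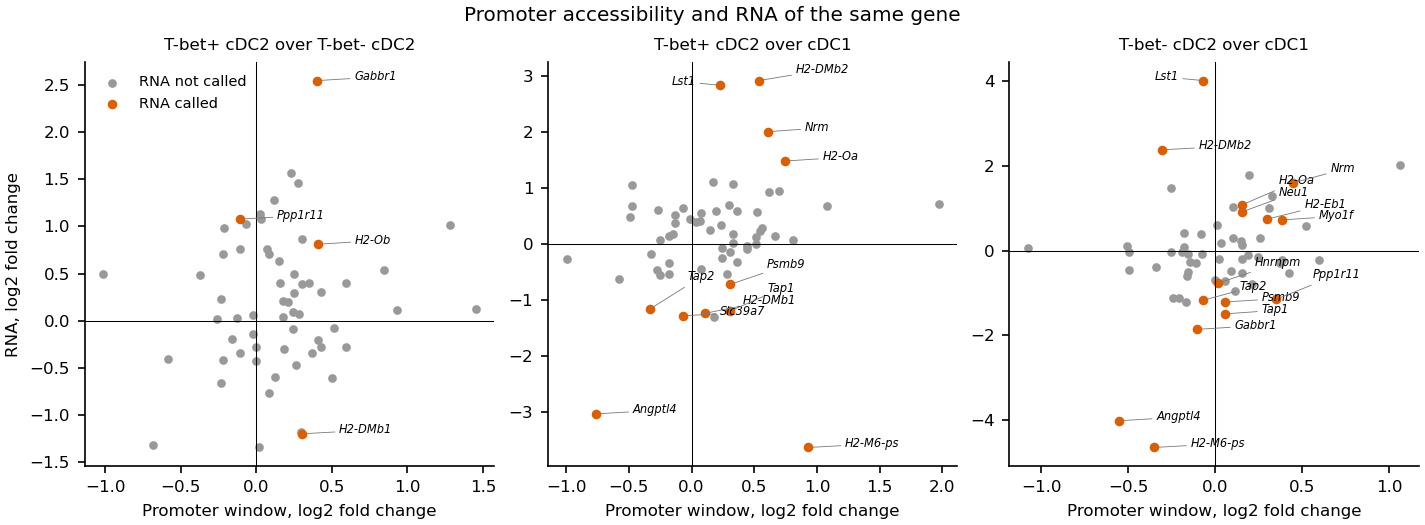
RNA log2 fold change (vertical axis) against the log2 fold change of the strongest window within 1000 bases of the gene start (horizontal axis) for 61 genes of the MHC interval, with 1 panel per comparison and genes called in RNA in orange and named. Points spread over all quadrants, with a Spearman's rho of 0.063, 0.27 and 0.26.

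The labels were checked in RNA. Tbx21, which encodes T-bet, held 545, 587 and 407 counts in T-bet+ cDC2s, 6.81, 36.5 and 56.0 in the T-bet- subset and 21, 29.1 and 3.43 in cDC1s, and the cDC1 and cDC2 marker genes Xcr1 and Sirpa followed their labels in every library. Among genes of other cells, Ms4a1, a B cell gene, held 703, 539 and 757 counts in T-bet+ cDC2s, 59.0, 157 and 125 in the T-bet- subset and 845, 1032 and 1789 in cDC1s, while the B cell factor Pax5 was at 0 to 1.22. Summed markers were 48.7 to 67.3 in T-bet+ cDC2s, 173 to 280 in the T-bet- subset and 83.3 to 143 in cDC1s for 2 monocyte genes. They were 33.6 to 57.0, 13.4 to 25.0 and 9.15 to 12.6 for 3 T cell genes, 364 to 497, 328 to 522 and 81.4 to 150 for 2 neutrophil genes and 1315 to 1714, 1545 to 2796 and 1043 to 1337 for 2 genes of plasmacytoid dendritic cells. B cells carry open class II chromatin and high class II RNA, and their part in the class II values was not tested.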

How the data were processed

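ATAC-seq was measured in 6 spleen libraries and RNA-seq in 9 spleen libraries, while 7 RNA libraries of mesenteric lymph node entered no test. Both deposited tables used here hold raw counts that the authors made, per 150-base window around a summit and per gene. ATAC reads were aligned to mm10 with Bowtie2 2.2.5, kept if unique (SAMtools 1.9) and shifted by 4 and 5 bases according to strand, and peaks were called with MACS2 2.1.1.20160309 on all replicates together and kept if reproducible. RNA reads were aligned with HISAT2 2.1.0 and counted in R 3.4.0, with versions as the submitters' processing notes give them. The strand setting of the RNA counting is not given in the sources used here. The deposited summit list also holds values taken to be −log10 p, and the score column of the peak list deposited by the authors is 0 throughout. Neither was used.

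Counts were filtered (filterByExpr), normalized (TMM) and tested over the whole table with edgeR 4.0.16 (quasi-likelihood, Benjamini-Hochberg), all 3 subsets in one fit, with 3 residual degrees of freedom for ATAC and 6 for RNA. With 2 ATAC libraries per subset, p-values rest on the spread between few libraries. Distances and locations used GENCODE M21 and sequences the RefSeq genome. DESeq2 1.42.0, limma 3.58.1, pandas 2.3.3, numpy 2.4.6, matplotlib 3.10.9 and pysam 0.24.0 under R 4.3.3 and Python 3.11.15 served for alternatives, tables and figures. The code was tested on simulated data, with 200 windows and 200 genes changed 4-fold in T-bet+ over T-bet- cDC2s. It recovered 196 of the windows and 104 of the genes, with 2 false calls in each assay, so many RNA changes of that size went uncalled. Alternatives were other tests, scalings, filters and GC offsets, a stricter fold, a replicate block, fits of the compared subsets alone and leaving out each library.

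Gene lists were chosen with earlier results of these data known, while the windows of the interval were set by position alone. Named were, per comparison and direction, the 5 called windows with the largest fold change (1 per peak, at least 50 normalized reads in the higher subset, no overlap), the strongest promoter window of each of 59 listed genes and the 10 strongest windows, and for RNA the listed genes and the 5 called genes with the largest change. Items outside this rule are marked in the text. RFP+ cells were taken as T-bet+, as the labels give it, although one sentence of the methods has the sign the other way. Same-numbered ATAC libraries correlated at -0.080, 0.0032 and 0.044, which gave no sign of pairing. With 2 libraries per subset each pair of subsets offers a single contrast, so these values cannot show that the libraries were unpaired. Same-numbered RNA libraries of T-bet+ cDC2s and cDC1s correlated at 0.46, 0.21 and 0.19, over 0.1 in every pair, so the result with the replicate block is given for that comparison. Differently numbered libraries of these 2 subsets correlated at -0.42 to 0.18, so the pairing is uncertain. The block was fitted over all 3 subsets at once, and no paired fit of these 2 alone was made. In the other RNA comparisons same-numbered libraries correlated at -0.75 to -0.084. Named items are described singly or in groups, and the promoter windows and RNA of listed genes without a call mostly as counts. Separately, an item withheld from the text is not reported here.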

Additional observations from a re-analysis of the deposited data

How the results depend on the processing

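No call of a named window or gene changed sign under any alternative run. Of the named items in each comparison, 1595 results kept their side of the threshold, 207 lost it and 71 gained it. DESeq2 called 7, 50 and 30 windows in place of 29, 97 and 56 (T-bet+ over T-bet- cDC2s, T-bet+ cDC2s over cDC1s, T-bet- cDC2s over cDC1s) and 16 genes in place of 10 between the cDC2 subsets. Fitting only the compared subsets left 19 windows between the cDC2 subsets, and no filter on low counts gave 16 genes there. Leaving out 1 library gave 9 to 48, 52 to 99 and 32 to 46 windows and 5 to 15, 16 to 20 and 19 to 37 genes in these 3 comparisons. The lowest gene counts came without T-bet+ replicate 1 or 3 (5), without T-bet+ replicate 2 (16, with 10 higher and 6 lower) and without cDC1 replicate 2 (19). With the replicate block, 17 genes (10 higher, 7 lower) were called for T-bet+ cDC2s over cDC1s, where same-numbered libraries correlated, against 25 (10 and 15). Elsewhere the correlations gave no sign that the numbers pair the libraries. There the block gave 5 genes between the cDC2 subsets and 19 for T-bet- cDC2s over cDC1s, against 10 and 30. The windows called with the block were 18 higher and 6 lower, 56 and 39, and 19 and 33. Library size alone moved the median log2 fold change of all windows by up to -0.18. The cause of these shifts was not tested. With 2 ATAC libraries per subset and an interval in which T-bet+ replicate 1 held 1.30 times the reads of replicate 2, differences between the cDC2 subsets near the threshold depend on single libraries. Windows of few reads were not tested, and a missing call does not show that subsets are alike.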

Other observations

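RNA libraries of the mesenteric lymph node, 2 per cDC2 subset and 3 of cDC1s, entered no comparison, and their CPM values (counts scaled to the same library total) are given here. H2-Ob was at 583 and 243 in T-bet+ cDC2s, 117 and 135 in the T-bet- subset and 321, 108 and 175 in cDC1s. H2-DMb2 was at 1295 and 645, 586 and 626, and 188, 73.7 and 105, so that the cDC1 libraries were the lowest. H2-DMb1 was at 323 and 188, 410 and 395, and 847, 266 and 340. H2-Eb2 was at 137 and 182, 116 and 90.02, and 8.58, 17.6 and 15.9, and Ddr1 at 175 and 69.8, 48.8 and 73.7, and 2.64, 5.25 and 3.10. For both genes every cDC2 library was above every cDC1 library. Tap1 was at 576 and 826, 523 and 847, and 1415, 2092 and 1881, and the cDC1 libraries were the highest. H2-Oa was at 895 and 464, 284 and 303, and 290.2, 111 and 145, so that the T-bet- and cDC1 libraries overlapped, unlike in the spleen. Of further genes called between the cDC2 subsets in the spleen, H2-M2 was at 102 and 335, 306 and 418, and 14.5, 61.5 and 82.7, and Aif1 at 45.7 and 256, 362 and 263, and 392, 211 and 223. For H2-M2 the cDC2 subsets overlapped in the node, and for Aif1 they did not, although the second T-bet+ library was close to the second T-bet- library and above 2 cDC1 libraries. H2-M5 was at 0.524 and 0.504, 0.680 and 0.239, and 6.42, 1.64 and 4.31, so that the cDC2 subsets overlapped, unlike in the spleen. Ppt2 was at 8.61 and 4.28, 42.2 and 31.5, and 93.4, 38.5 and 48.0, with the T-bet+ libraries lowest. Cfb was at 2.23 and 12.4, 40.5 and 19.5, and 0.88, 2.50 and 2.14, Gabbr1 at 9.44 and 6.17, 1.11 and 4.34, and 12.4, 7.24 and 9.03, and Ppp1r11 at 180.1 and 102, 77.9 and 57.3, and 231, 119 and 113, and for these 3 genes the cDC2 subsets did not overlap. The first cDC1 library stood above the other 2 cDC1 libraries for H2-Ob, H2-DMb2, H2-DMb1 and H2-Oa.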
